A study of Mus musculus with 6 samples.

Results

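The genes described here are those induced by interferon in mammalian cells, with the Irf and Stat transcription factors that carry the signal. They were read in the entire small intestine of 3 Cftr null mice, CFTR(-/-), and 3 Cftr control mice, CFTR(+/+), all 40 days old and congenic on the black6 background. All 6 mice had been fed the liquid diet Peptamen from an age of 10 days, so the comparison holds only for mice on that diet, and the allele behind the null genotype is not named in the labels. Each group held 2 males and 1 female, the females being null replicate 2 and control replicate 3, and the RNA of 1 mouse was hybridized to 1 Affymetrix array. The genes were chosen by their symbols alone, which begin with Ifi and a digit, Ifit, Isg, Irf, Oas, Gbp, Igtp, Irgm, Iigp, Tgtp, Mx, Stat, Usp18, Eif2ak2, Bst2 or Ido1. Because Ifitm symbols begin with Ifit, the Ifitm genes were included. The choice gave 53 probe sets for 45 genes, out of 10833 probe sets for 8251 genes with 1 symbol each. Of the 53 probe sets, 39 for 34 genes had a value above 109.7 in at least 3 of the 6 mice and were tested, and the other 14 were too dim. Irf2 and Bst2 were not analysed here. The targeted gene, Cftr, fell in the null mice, with a log2 change of -1.48 (SE 0.15, adjusted p = 0.00421, limma) and 330 ± 36.6 in nulls against 940.4 ± 120.4 in controls (intensity, SD, n = 3 each), so the genotype labels and the array readings pointed the same way.

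Interferons are cytokines that cells release on infection or inflammation. Type I interferons signal through the Jak1 and Tyk2 kinases, and many of their target genes carry the interferon-stimulated response element (ISRE). Type II interferon, Ifng, signals through Jak1 and Jak2, and many of its target genes carry the gamma-activated site (GAS). Several Stat factors serve other cytokines, Stat3 those of the interleukin 6 and interleukin 22 kind, Stat5 growth hormone and interleukin 2, and Stat6 interleukin 4 and interleukin 13. The induced proteins block viral entry, bind or break viral RNA, attack the vacuoles in which microbes live, or damp the response itself.

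The promoters of 4 genes that the results below turn on are shown first, since they carry the sequences through which the response is known to run. Ifitm3 is the gene that passed the test, Isg15 and Igtp stand for the patterns of variation between mice, and Irf1 is a classical target of interferon gamma. Each sequence runs 5' to 3' from 250 bases before to 50 bases after the annotated start (RefSeq, GRCm38.p6), with matches to the ISRE core GAAANNGAA or the GAS core TTCNNNGAA, on either strand, in capitals.
Ifitm3, chr7:141010695-141010994 (-): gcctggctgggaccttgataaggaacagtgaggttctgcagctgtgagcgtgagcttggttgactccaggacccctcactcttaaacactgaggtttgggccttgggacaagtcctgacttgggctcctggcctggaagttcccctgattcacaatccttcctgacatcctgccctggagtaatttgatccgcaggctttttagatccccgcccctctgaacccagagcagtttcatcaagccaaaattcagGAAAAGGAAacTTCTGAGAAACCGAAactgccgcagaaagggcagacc
Isg15, chr4:156200769-156201068 (-): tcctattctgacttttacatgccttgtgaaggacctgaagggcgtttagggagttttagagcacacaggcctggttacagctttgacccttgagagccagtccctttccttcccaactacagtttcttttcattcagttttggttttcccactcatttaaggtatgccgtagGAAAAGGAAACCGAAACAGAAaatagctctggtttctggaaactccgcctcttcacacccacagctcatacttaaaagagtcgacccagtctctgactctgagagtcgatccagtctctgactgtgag
Igtp, chr11:58199306-58199605 (+): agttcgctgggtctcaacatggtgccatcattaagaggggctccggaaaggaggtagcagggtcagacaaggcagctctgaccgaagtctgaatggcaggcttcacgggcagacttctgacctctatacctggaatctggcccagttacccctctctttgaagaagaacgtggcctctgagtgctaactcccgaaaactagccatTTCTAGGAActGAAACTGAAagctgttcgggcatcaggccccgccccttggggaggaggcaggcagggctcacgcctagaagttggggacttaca
Irf1, chr11:53769764-53770063 (+): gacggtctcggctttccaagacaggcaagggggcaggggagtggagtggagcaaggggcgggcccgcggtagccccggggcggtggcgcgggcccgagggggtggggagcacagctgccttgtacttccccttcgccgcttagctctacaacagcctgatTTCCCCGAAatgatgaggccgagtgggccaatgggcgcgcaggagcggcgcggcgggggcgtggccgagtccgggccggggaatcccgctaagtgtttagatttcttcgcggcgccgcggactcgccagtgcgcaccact
In Ifitm3 the first ISRE match began 2 bases after the annotated start, and the GAS match, which began 13 bases after it, overlapped the second ISRE match. In Isg15 the 3 ISRE matches overlapped each other, the first of them starting at -78 from the annotated start. In Igtp a GAS match at -45 stood just before an ISRE match at -34, and Irf1 had a GAS match at -90 and no ISRE match.

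RefSeq promoter windows were matched for 37 of the 45 genes. The ISRE core was found for 16 of the 37 (43.2%), against 8.72% of the 6573 array genes with a window, and the GAS core for 12 (32.4%), against 8.50% of them. All 4 Gbp genes, 3 of 4 immunity-related GTPases and 3 of 5 Ifit and Isg genes had an ISRE match. Of 7 Irf genes, 0 had an ISRE match, whereas Irf1 and Irf8 had GAS matches. Of 27 ISRE matches, 26 lay between 150 bases before the start and the end of the window, and so did 10 of 14 GAS matches. These matches describe the letters of the windows and do not show that a factor binds there.

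**Figure D1:**
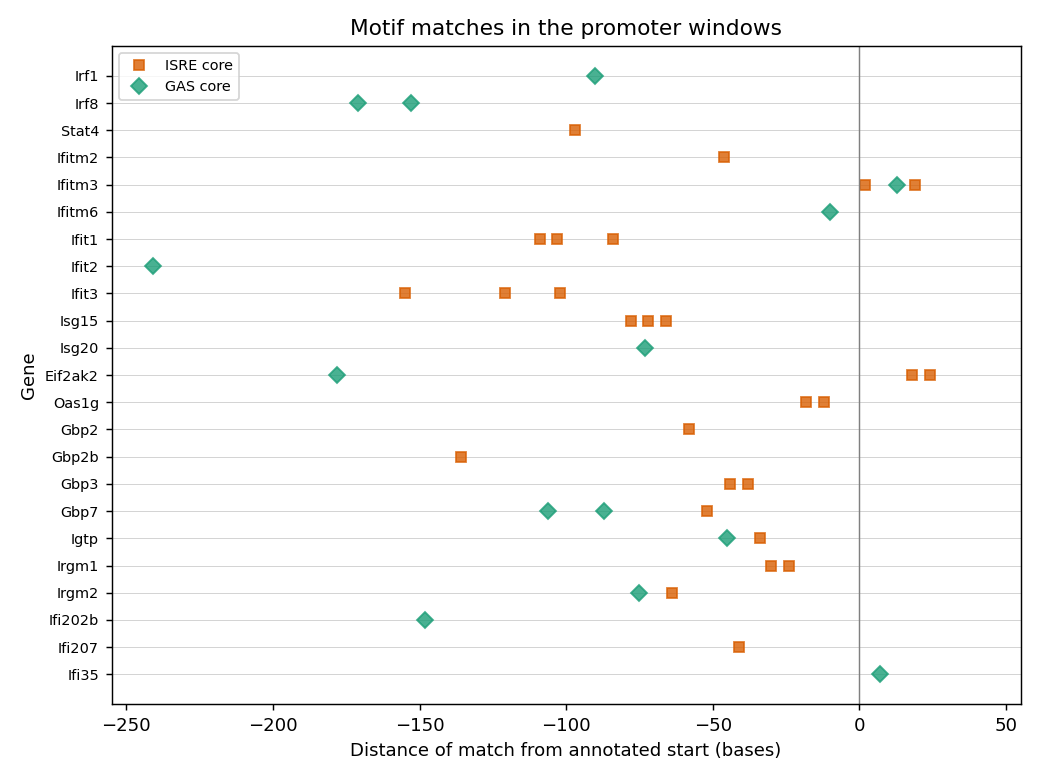
Position of each ISRE core match (squares) and GAS core match (diamonds) in the promoter windows of the 23 genes with a match to either, on the horizontal axis as the distance of the match's first base from the annotated start. The 27 ISRE matches begin between -155 and 24, and the 14 GAS matches between -241 and 13.

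Of the 39 probe sets tested, Ifitm3 rose in Cftr null intestine and 0 fell, at an adjusted p of at most 0.05 (limma, adjusted over all 7601 probe sets tested). Calls made up 3.0% of all probe sets, 1.13% being higher and 1.87% lower in null mice, so that 1 call among 39 probe sets was near the background. The values of null and control mice did not overlap in 8 of the 39, against 23.8% of all probe sets. In 5 of these 8 the nulls were higher (13.1% of all), and in 3 lower (10.8% of all). At an unadjusted p under 0.05 there were 5 of the 39, against 17.3% of all, of which 3 were higher (9.10% of all) and 2 lower (8.17% of all). The median log2 change was 0.09 over the 39 and 0.03 over all 7601. Of the 39, 25 had a change above 0, against 54.3% of all.

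**Figure D2:**
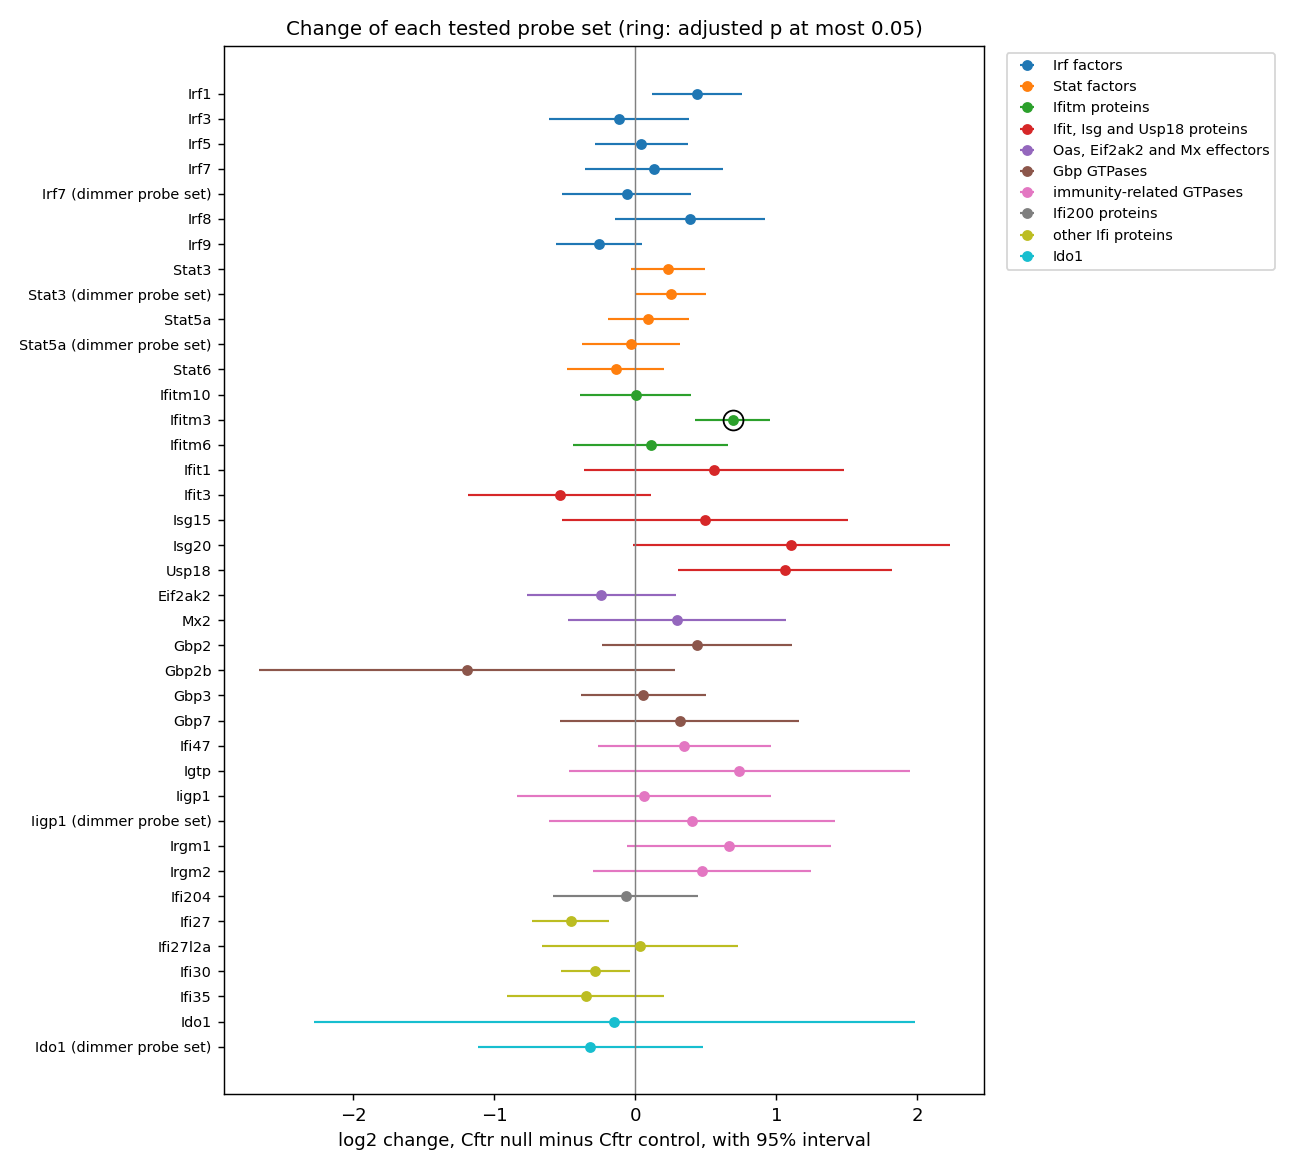
Log2 change, Cftr null minus Cftr control, of each of the 39 tested probe sets with its 95% interval from limma, coloured by role (3 null and 3 control mice). A ring marks Ifitm3, the one probe set past the threshold. Its interval is among the narrow ones, whereas those of Igtp, Isg15, Isg20 and Gbp2b are wide. That of the brighter Ido1 probe set is the widest, from -2.28 to 1.98.

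Bulk RNA cannot tell a change in the number of cells of a kind from a change in RNA per cell, and some cell type markers differed between the groups. The summed intensity of 10 epithelial markers was between 72120 and 105100 in null mice and between 114000 and 134600 in controls. Of the 10, 0 passed the test singly. Lct, Fabp2 and Apoa4 were lower in every null mouse, with log2 changes of -3.12, -1.31 and -0.63. These were 3 of the 10, against 10.8% of all probe sets. The groups overlapped for Epcam, Vil1, Krt20, Apoa1, Fabp1, Cdx1 and Cdx2, and the changes of Cdx1 and Cdx2 were above 0. The summed intensity of 10 mast cell markers lay between 4638 and 12310 in nulls and between 807.9 and 985.8 in controls. Without Mcpt1 it was 2372.5 to 6187.8 in nulls and 736.2 to 815.0 in controls. Of 5 tested, 3 rose, against 1.13% of all probe sets: Mcpt1, Mcpt2 and Cpa3, with log2 changes of 5.66, 4.63 and 2.82. Cpa3 was above the filter level only in null mice, with 13.5 to 30.6 in controls. For Kit and Tpsb2 the groups overlapped, with log2 changes of -0.04 and -0.38. Of 7 B and plasma cell markers, Jchain, the joining chain of secreted antibodies, rose and 0 fell, against 1.13% and 1.87% of all. The sum of the list was between 6526 and 7568 in nulls and between 4474 and 4824 in controls, but without Jchain it overlapped, at 1272.4 to 1436.3 in nulls and 1180.8 to 1546.3 in controls. Of 8 macrophage markers tested, Lyz2, a lysozyme, fell and 0 rose, against 1.87% and 1.13% of all. Without passing, Cd14, Cd68 and C1qc were higher in every null mouse and Fcgr1 was lower in every null mouse. With Lyz2, 3 of the 8 were thus higher in every null mouse (13.1% of all probe sets) and 2 lower (10.8% of all). The sum of the macrophage list was between 10780 and 11250 in nulls and between 11460 and 14260 in controls, and without Lyz2 between 6920.6 and 7780.5 in nulls and between 6406.7 and 6818.9 in controls. Sums over 13 T and NK cell markers overlapped, at 1789 to 2978 in nulls and 2045 to 2965 in controls, and no marker was at 0 on any array. The defining T cell genes Cd3e and Cd3g were too dim to be tested. Cd3e was at 53.3, 63.6 and 50.3 in nulls and 56.4, 211.8 and 84.7 in controls, and Cd3g at 6.0 to 53.1 in nulls and 14.6 to 56.6 in controls. Cd8a and Klrd1, also too dim to be tested, were lower in every null mouse, at 18.7 to 22.3 in nulls and 34.6 to 100.5 in controls for Cd8a and 28.1 to 71.3 in nulls and 97.8 to 134.3 in controls for Klrd1. The 4 markers tested, Gzma, Gzmb, Cd7 and Cd4, carried most of the sum, and their groups overlapped. The part of these shifts in the results below was not tested.

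Ifitm3 encodes a membrane protein of endosomes that hinders the entry of enveloped viruses. Its intensity was 3751.1, 3418.4 and 3325.7 in null replicates 1 to 3, against 1969.4, 2301.3 and 2228.5 in control replicates 1 to 3. Every null mouse was higher than every control, with 3498 ± 224 in nulls and 2166 ± 174 in controls (SD, n = 3 each). The rise was 1.61-fold (log2 change 0.69, SE 0.11, adjusted p = 0.0214, limma). It was not past the threshold without null replicate 1 (adjusted p = 0.0979), null replicate 2 (0.0548), null replicate 3 (0.058), control replicate 1 (0.0997) or control replicate 3 (0.0584), while its size stayed between 0.62 and 0.74 in these fits and in that without control replicate 2.

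Of the other Ifitm genes, 2 were bright enough to be tested, and neither passed. Ifitm10, of which little is known, was at 619.0, 440.4 and 651.3 in nulls and 526.8, 547.7 and 614.3 in controls, with a log2 change of 0.00 (95% interval -0.39 to 0.39). Ifitm6 had a log2 change of 0.11. Ifitm1 and Ifitm2, close relatives of Ifitm3, were too dim to be tested, with 85.0, 110.8 and 86.2 in nulls against 160.4, 102.4 and 89.2 in controls for Ifitm1. Ifitm2 was at 64.6, 72.0 and 71.0 in nulls and 57.4, 117.4 and 113.0 in controls. Whether the changes of Ifitm3 and its relatives differ was not tested.

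Among the Irf factors, which bind ISRE-like sequences, 0 of 7 tested probe sets passed, and the groups did not overlap for Irf1, higher in nulls, and Irf9, lower in nulls. Irf1, itself induced by interferon gamma, was at 2720.2, 2716.4 and 2084.8 in nulls and 1769.4, 1958.8 and 1784.1 in controls. Null replicates 1 and 2 were alike and null replicate 3 lay near the highest control. The log2 change was 0.44 (95% interval 0.12 to 0.75, adjusted p = 0.155). Irf8, a factor of myeloid cells, gave 1574.1, 1884.9 and 1077.2 in nulls against 1327.5, 898.8 and 1193.3 in controls. Its groups overlapped, since null replicate 3 was under both control replicates 1 and 3 (log2 change 0.39, adjusted p = 0.441).

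Irf9, a DNA-binding factor of the type I interferon response, was at 664.3, 666.7 and 548.5 in nulls and 701.0, 812.2 and 736.7 in controls. Every null mouse was under every control, with a log2 change of -0.26 that missed the threshold (adjusted p = 0.364). Irf7, the factor that amplifies type I interferon, gave 781.6, 956.8 and 546.7 in nulls and 670.5, 589.9 and 781.6 in controls. Its brighter probe set had a log2 change of 0.13 (95% interval -0.36 to 0.62) and a second one -0.06. Irf3, which switches on the first interferon genes after infection, and Irf5, a factor of myeloid cells, had log2 changes of -0.12 and 0.04. Irf4, a lymphocyte factor, was too dim to be tested, at 9.5 to 16.5 in nulls and 11.7 to 25.8 in controls.

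Of the Stat factors, Stat3 gave the closest readings. Its brighter probe set was at 1412.6, 1383.0 and 1343.9 in nulls and 1072.8, 1183.3 and 1280.6 in controls. A second one was at 1021.5, 973.8 and 1026.2 in nulls and 851.5, 792.3 and 890.5 in controls. On each probe set every null mouse was higher than every control. The log2 changes were 0.23 (95% interval -0.03 to 0.49, adjusted p = 0.354) and 0.25 (95% interval -0.00057 to 0.50, adjusted p = 0.29), so neither passed. Stat6 was at 1142.9, 992.3 and 1341.2 in nulls and 1200.4, 1440.7 and 1179.7 in controls, groups that overlapped (log2 change -0.14, 95% interval -0.48 to 0.20). The Stat5a probe sets, which by their names may also read related transcripts, had log2 changes of 0.09 and -0.03. Stat5b, at 78.6 to 92.8 in nulls and 24.3 to 110.4 in controls, and Stat4, a factor of T and NK cells, were too dim to be tested.

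The Ifit, Isg and Usp18 group holds the transcripts most used as a readout of type I interferon. Of 5 tested, 4 had a log2 change above 0 and 0 passed. Usp18, which strips Isg15 from proteins and blocks the type I receptor, was at 451.3, 604.3 and 264.1 in nulls and 134.1, 213.2 and 253.0 in controls. The groups did not overlap, though null replicate 3 was just above the highest control. The log2 change was 1.06 (95% interval 0.30 to 1.82, adjusted p = 0.15). Isg15, the ubiquitin-like modifier, was at 1292.9, 2219.5 and 697.1 in nulls against 787.2, 625.2 and 1449.0 in controls. The groups overlapped widely, with null replicate 3 under 2 of the controls (log2 change 0.49, adjusted p = 0.619).

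Ifit1, which binds viral RNA, had the same order of mice as Isg15 within each group, with 1243.4, 1470.0 and 694.2 in nulls and 652.7, 464.0 and 1294.1 in controls (log2 change 0.56, adjusted p = 0.528). Its relative Ifit3 pointed the other way, at 154.4, 206.3 and 95.9 in nulls and 178.4, 231.3 and 246.2 in controls, with a log2 change of -0.54 (95% interval -1.19 to 0.11). Ifit2 was too dim to be tested, although every null value, 103.2, 173.6 and 60.3, was above every control value, 12.7, 10.5 and 45.1. Fitted with no filter on low values, Ifit2 had a log2 change of 1.87 and missed the threshold (adjusted p = 0.13). Isg20, an exonuclease, was at 189.4, 165.2 and 102.9 in nulls and 113.0, 79.1 and 24.2 in controls. These controls averaged under the filter level, so the log2 change of 1.10 (adjusted p = 0.296) is a value of dim signals.

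**Figure D3:**
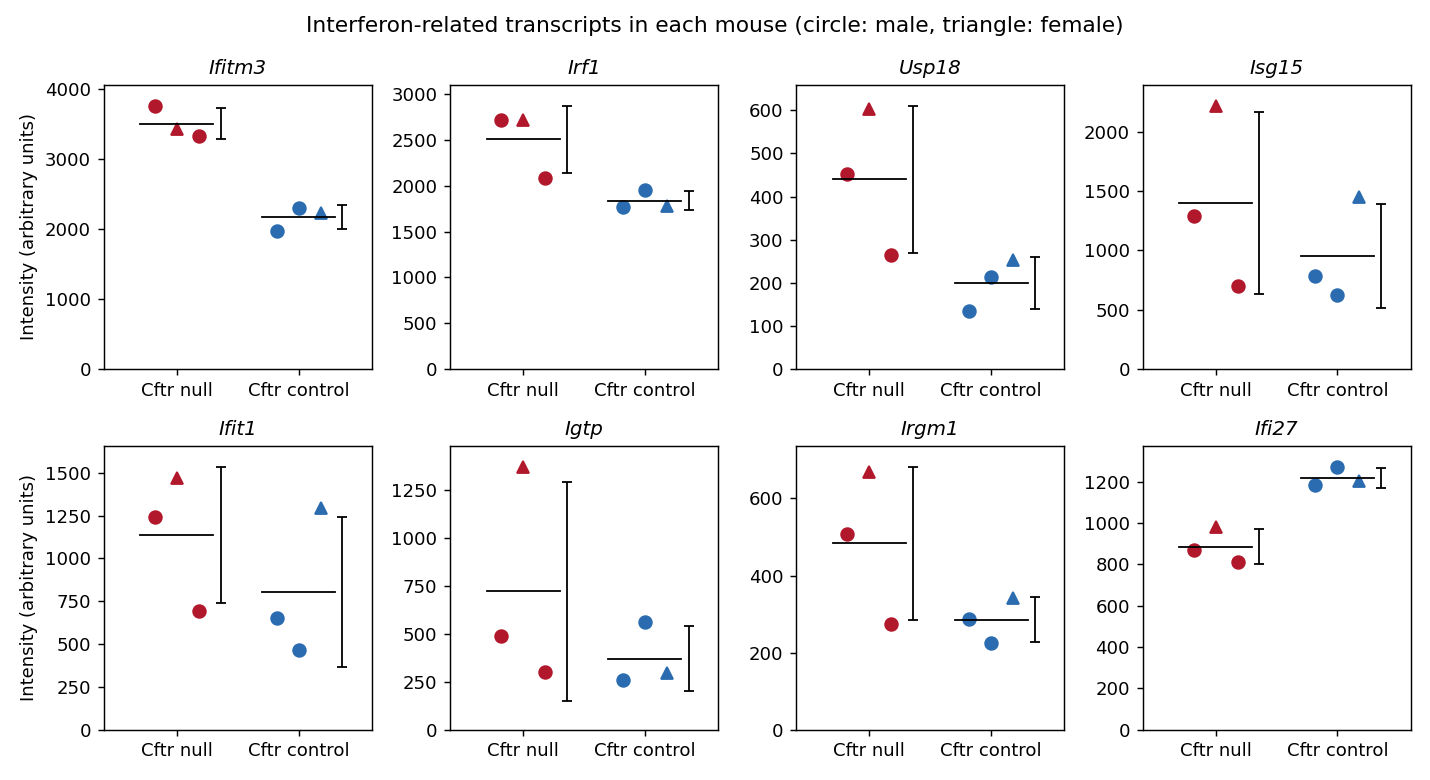
Intensity in arbitrary units of 8 genes in each Cftr null mouse and each Cftr control mouse, with the group mean (line) and SD (bar, n = 3). Triangles are the 2 females. The groups are apart for Ifitm3, Irf1, Usp18 and Ifi27 and overlap for Isg15, Ifit1, Igtp and Irgm1, where null replicate 2 is the highest of all 6 mice.

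Effectors that sense or inhibit viral RNA and particles were near the lower end of what the array read. Eif2ak2, the kinase PKR that halts translation on double-stranded RNA, was at 109.8, 111.3 and 126.7 in nulls and 152.8, 157.9 and 111.2 in controls (log2 change -0.24, adjusted p = 0.636). Mx2, a dynamin-like GTPase, gave 141.4, 154.1 and 88.4 in nulls and 94.9, 70.1 and 145.4 in controls. Both sets of values overlapped. Mx1, at 52.1 to 100.5 in nulls and 47.9 to 58.3 in controls, and Oas1g, of the family that makes the messenger 2-5A, at 16.1 to 27.3 in nulls and 10.9 to 22 in controls, were too dim to be tested.

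The GTPases induced by interferon gamma coat and break the vacuoles of intracellular microbes. Of 10 tested probe sets for the Gbp proteins and the immunity-related GTPases (Ifi47, also known as Irgd, counted as an immunity-related GTPase), 9 had a log2 change above 0 and 0 passed. Igtp was at 491.5, 1372.9 and 302.9 in nulls and 256.9, 563.4 and 294.2 in controls. The reading of null replicate 2 was by far the highest and the other 5 mice overlapped (log2 change 0.74, 95% interval -0.47 to 1.95). Irgm2 likewise gave 776.0, 1590.3 and 600.7 in nulls and 595.7, 812.5 and 567.7 in controls. Irgm1, a regulator of the other GTPases, was at 507.4, 669.2 and 273.3 in nulls and 288.0, 226.1 and 342.2 in controls (log2 change 0.67, adjusted p = 0.325), with null replicate 3 among the controls.

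Ifi47 had a log2 change of 0.34 and the brighter probe set of Iigp1 one of 0.06. Among the guanylate-binding proteins, Gbp2 was at 276.1, 601.9 and 320.2 in nulls and 258.1, 345.2 and 233.8 in controls (log2 change 0.44, adjusted p = 0.494). Gbp7 and Gbp3 had changes of 0.31 and 0.06. Gbp2b had the largest negative change of the set, -1.20, but rested on dim values, 86.5, 140.7 and 11.4 in nulls and 170.0, 146.1 and 134.8 in controls (adjusted p = 0.388).

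Of 4 other Ifi genes tested, 3 were lower in null mice and 0 passed. Ifi27, a small mitochondrial protein and a strong marker of interferon in human blood, was at 868.1, 980.5 and 811.8 in nulls and 1183.8, 1273.4 and 1202.6 in controls. The groups did not overlap, and the log2 change of -0.46 (95% interval -0.73 to -0.19) had an adjusted p of 0.0916. Ifi30, the lysosomal thiol reductase GILT that prepares antigens for class II presentation, was at 1800.4, 1842.8 and 1700.3 in nulls and 2235.9, 2234.1 and 2046.8 in controls. It too had groups apart without passing (log2 change -0.28, adjusted p = 0.22). Ifi35 had 1253.1, 1387.8 and 713.1 in nulls and 1310.2, 1306.6 and 1524.4 in controls (log2 change -0.35), and Ifi27l2a a log2 change of 0.03.

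Of the Ifi200 family, DNA-binding proteins of the inflammasome and interferon pathways, 1 of 6 probe sets was bright enough. That one, for Ifi204, had 157.3, 213.6 and 157.7 in nulls and 154.9, 235.5 and 169.2 in controls (log2 change -0.07). Probe sets of this family may read several of its near-identical members. Ido1, the tryptophan-degrading enzyme, was read by 2 probe sets that disagreed from mouse to mouse: one gave 22.7, 171.2 and 192.0 in nulls and 253.7, 21.5 and 186.5 in controls, the other 111.8, 141.8 and 56.3 in nulls and 104.8, 124.8 and 145.9 in controls. Neither passed, with log2 changes of -0.15 and -0.32.

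Mice of one genotype differed more in these genes than in the array as a whole. The median SD within the null group on the log2 scale was 0.40 over the 39 probe sets and 0.19 over all 7601, and within the control group 0.23 and 0.19. The widest gap was between null replicates 2 and 3, whose median absolute difference was 0.73 over the 39 and 0.23 over all. Null replicate 2 was the highest null mouse in 28 of the 39 (71.8%), against 35.2% of all probe sets. It was so in 10 of 10 GTPase probe sets and in 4 of 5 of the Ifit, Isg and Usp18 group, and null replicate 3 was the lowest null mouse in 8 of the 10 and 5 of the 5. How often null replicate 3 was the lowest null mouse over all probe sets was not counted. With 1 female in each group, sex cannot be told apart from the individual mouse.

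The groups of genes differed, in small counts, in which control mouse was most often the highest control. For 7 of the 10 GTPase probe sets it was control replicate 2, a male, as for Igtp, Irgm2, Iigp1 and Gbp7. Both probe sets of Iigp1 count among the 7. For 4 of the 5 of the Ifit, Isg and Usp18 group it was control replicate 3, the female. Over all probe sets, the share with a given highest control was split by the highest null mouse, null replicates 1 to 3 in turn. For control replicate 2 the parts were 10.2%, 10.5% and 18.3%. They were 9.5%, 13.3% and 9.74% for control replicate 3, and 9.67%, 11.4% and 7.38% for control replicate 1. The parts of each control add to its share as the highest control. The immunity-related GTPases of null replicate 2 averaged 1.01 above their mean over 6 mice on the log2 scale, against 0.03 and -0.36 in null replicates 1 and 3. In controls these averages were -0.35, 0.03 and -0.36 in replicates 1 to 3. For the Ifit, Isg and Usp18 group the averages were 0.42, 0.74 and -0.36 in null replicates 1 to 3 and -0.34, -0.40 and -0.07 in controls. The summed T and NK cell markers were also highest in null replicate 2 among nulls (2172, 2978 and 1789 in null replicates 1 to 3) and in control replicate 2 among controls (2045, 2965 and 2453); their part in the GTPase readings was not tested. Across the set, the pair of null replicate 2 and control replicate 2 led in 12 of 39 probe sets, against 10.5% of all, and that of null replicate 2 and control replicate 3, the females, in 11, against 13.3% of all.

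**Figure D4:**
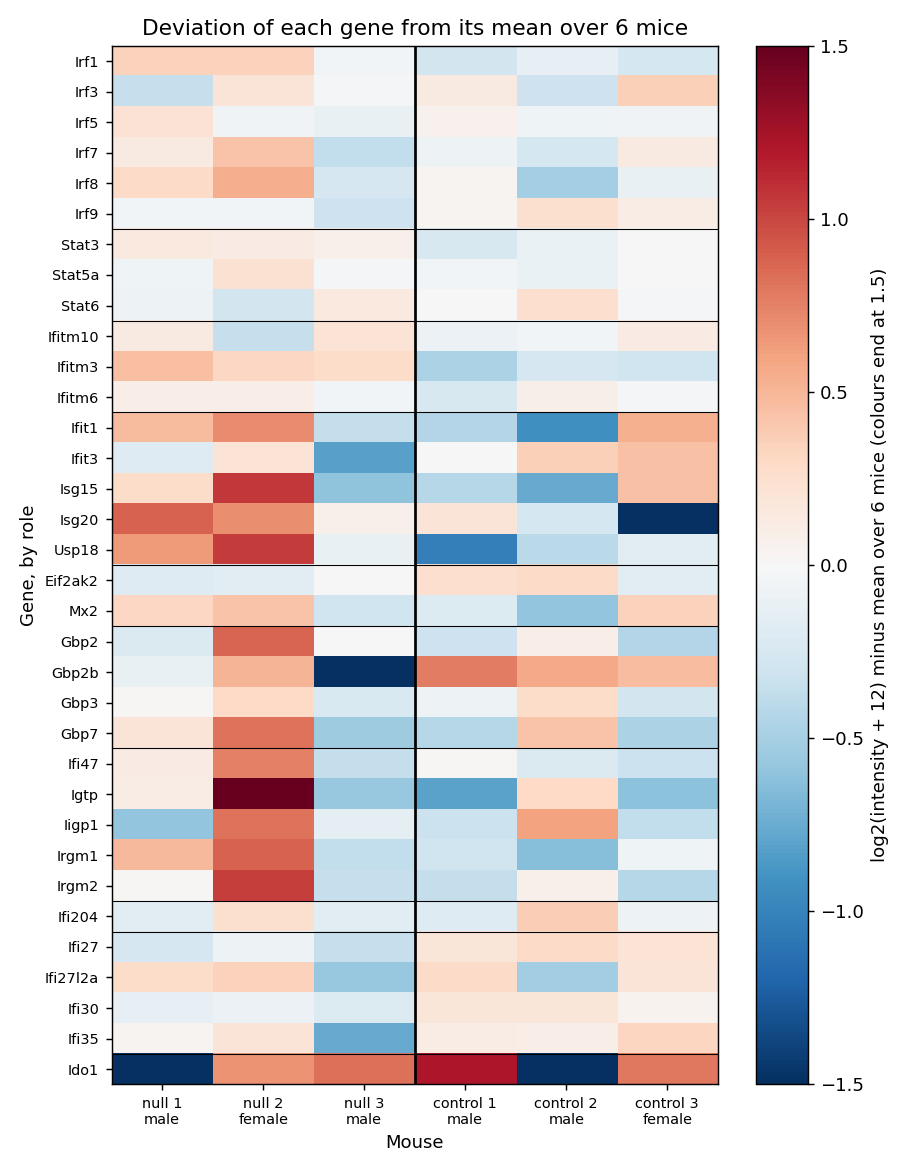
Deviation of log2(intensity + 12) from the mean over 6 mice for the 34 genes, by the brightest tested probe set, in 3 Cftr null mice (left) and 3 Cftr control mice (right). The column of null replicate 2 is red through the Ifit, Isg, Gbp and immunity-related GTPase rows and that of null replicate 3 mostly blue, while the Ifitm3 row changes colour at the line between the genotypes.

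Whether the effect of genotype differed between the sexes was tested in limma with an interaction term, which rests on 1 mouse in each female cell. Of the 39 probe sets, 0 passed, as did 0 of all 7601. At an unadjusted p under 0.05 there were 7 of the 39 and 236 of all.

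The genes upstream of the set gave no call. Of 13 tested genes for interferons, their receptors and the Jak kinases, 0 rose and 0 fell, with a median log2 change of -0.08. At an unadjusted p under 0.05 there were 3 (17.3% of all probe sets), 1 higher in nulls (9.10% of all) and 2 lower (8.17%). Jak3, the kinase of receptors with the common gamma chain, was higher in every null mouse, at 602.7, 607.1 and 594.4 in nulls and 495.7, 443.9 and 442.7 in controls (log2 change 0.38, adjusted p = 0.139). Ifng was at most 7.1 in nulls and 2.3 in controls, and Ifnb1 at most 45.0 in nulls and 27.6 in controls, both too dim to be tested. The receptor chain Ifngr2 was lower in every null mouse, at 1179.3, 795.1 and 1205.0 in nulls and 1751.0, 1469.1 and 1382.6 in controls (adjusted p = 0.181). Il10rb, a chain shared by the receptors of interferon lambda, interleukin 10 and interleukin 22, was at 2461.0, 2684.5 and 2592.1 in nulls and 2868.4, 3306.9 and 3154.8 in controls (adjusted p = 0.257).

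Of 5 sensors and adaptors tested, 0 passed (median log2 change -0.01), and 1 had an unadjusted p under 0.05, against 17.3% of all probe sets. Myd88, the adaptor of most Toll-like receptors, gave 452.6, 435.7 and 329.2 in nulls and 233.2, 256.5 and 305.2 in controls (adjusted p = 0.133). The kinase Tbk1, the brightest of the list, had a log2 change of -0.16.

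Of 12 inhibitors of Jak-Stat signalling tested, 0 rose and 0 fell, and the median log2 change was 0.14, against 0.03 over all probe sets. At an unadjusted p under 0.05 there were 4 (17.3% of all), 3 higher in nulls (9.10% of all) and 1 lower (8.17%). Socs3, the feedback inhibitor induced by Stat3, was at 1020.0, 1641.5 and 1776.9 in nulls and 417.0, 281.7 and 787.4 in controls, apart in every mouse (log2 change 1.64, adjusted p = 0.0586). Socs1, the inhibitor of interferon receptors, was at 363.4, 608.5 and 534.4 in nulls and 251.7, 207.0 and 301.2 in controls (log2 change 0.94, adjusted p = 0.0719). Ptpn2, a phosphatase that damps Jak-Stat signalling, was at 413.7, 376.6 and 392.9 in nulls and 277.5, 248.3 and 276.6 in controls (log2 change 0.54, adjusted p = 0.0714). Pias2, which inhibits Stat factors in the nucleus, was lower in every null mouse, at 298.2, 232.7 and 286.7 in nulls and 331.2, 360.5 and 388.0 in controls (log2 change -0.39, adjusted p = 0.234). The phosphatase Ptpn6 was likewise lower in every null mouse (log2 change -0.30, adjusted p = 0.37). Without control replicate 3, 1 of the 12 passed.

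Outside the set, 31 other interferon-induced genes were tested, of which 3 rose (1.13% of all probe sets) and 0 fell (1.87% of all). The median log2 change was 0.09, against 0.03 over all. At an unadjusted p under 0.05 there were 9 (17.3% of all), 7 higher in nulls (9.10% of all) and 2 lower (8.17%). Slfn2, a schlafen protein needed for T cell quiescence, was at 1499.6, 2268.0 and 1693.4 in nulls and 307.6, 383.2 and 490.5 in controls, a log2 change of 2.18 (adjusted p = 0.00398). The probe set of Slfn2 may, by its name, also read related transcripts. Lgals9, the lectin galectin 9, was at 8890.5, 7966.3 and 8376.3 in nulls and 5797.7, 5257.4 and 5448.0 in controls (log2 change 0.61, adjusted p = 0.0228). The third, Gch1, makes the cofactor tetrahydrobiopterin and had a log2 change of 0.89. The brightest of the list, the purine enzyme Pnp, was at 0.25. Cxcl9, the chemokine most tied to interferon gamma, was higher in every null mouse, at 165.2, 485.2 and 265.1 in nulls and 81.7, 137.0 and 89.5 in controls, without passing (adjusted p = 0.111). Slfn4, Wars and Rsad2 were also higher in every null mouse without passing. Their log2 changes were 1.53, 0.70 and 0.44 (adjusted p = 0.051, 0.145 and 0.2065, limma). Ube2l6, the enzyme that hands Isg15 on to its targets, was lower in every null mouse, at 183.9, 298.5 and 212.9 in nulls and 379.4, 374.6 and 411.6 in controls (log2 change -0.74, adjusted p = 0.0879). The peptidase Lap3 had a log2 change of -0.69 with groups that overlapped (adjusted p = 0.168). Without null replicate 1, null replicate 3, control replicate 1 or control replicate 3, 1 of the 31 passed.

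The machinery of antigen presentation, induced by interferon gamma, showed 0 calls in 11 class I and 10 class II genes tested. Each list had 1 gene at an unadjusted p under 0.05, against 17.3% of all probe sets. These were H2-Q1 of class I and H2-DMb2 of class II, each lower in every null mouse, with log2 changes of -0.67 and -0.70. The medians were -0.12 and -0.01. B2m, the class I light chain, was at 13032.8, 14793.3 and 11086.0 in nulls and 15425.1, 13554.7 and 14741.2 in controls. Without null replicate 2, 1 class I gene passed. The brightest genes, H2-K1 of class I and the invariant chain Cd74 of class II, had log2 changes of -0.12 and 0.04. Among nulls, replicate 2 was again highest and replicate 3 lowest in the immunoproteasome subunits Psmb8, at 2856.1, 3885.7 and 1890.4 in null replicates 1 to 3, and Psmb9, at 1600.0, 2236.9 and 1084.0. In control replicates 1 to 3 these were at 2394.2, 2435.2 and 2648.5 for Psmb8 and 1304.0, 1215.0 and 1403.2 for Psmb9.

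Of 26 genes described as Stat3 targets, 2 rose (1.13% of all probe sets) and 1 fell (1.87% of all). The median log2 change was 0.34, against 0.03 over all. With an unadjusted p under 0.05, 8 were higher (9.10% of all) and 3 lower (8.17% of all). The acute phase genes Lrg1 and Saa3 rose, with log2 changes of 3.62 and 3.27, and the lectin Reg3a fell by 0.61 on the log2 scale. Saa3 was above the filter level only in null mice, with controls at 48.8, 6.1 and 24.9, so its test was admitted by the null values alone. Saa2, another acute phase gene, missed the threshold, at 3602.9, 3102.1 and 1629.9 in nulls and 385.7, 154.6 and 1127.5 in controls (adjusted p = 0.0755). Without null replicate 1 or null replicate 3, 1 of the 26 passed, and 5 did without control replicate 3. Of 12 genes described as Stat5 or Stat6 targets, 1 rose, Retnlb (1.13% of all), and 0 fell, with a median log2 change of 0.21. Of the brightest genes, Reg3b among the Stat3 targets and Clca1 among the Stat5 and Stat6 targets, the log2 changes were 0.36 and 0.29. The direct Stat5 target Cish was at 412.1, 313.7 and 325.1 in nulls and 306.2, 272.3 and 275.6 in controls (adjusted p = 0.394). Il4ra, a receptor chain upstream of Stat6, was at 611.5, 678.4 and 1001.7 in nulls and 458.2, 524.4 and 342.5 in controls (adjusted p = 0.133). Ccnd2, a cyclin, was lower in every null mouse, at 51.3, 137.0 and 52.4 in nulls and 226.7, 143.2 and 319.2 in controls (log2 change -1.45, adjusted p = 0.125). At an unadjusted p under 0.05 there were 3 higher (9.10% of all) and 1 lower (8.17% of all) of these 12. Of the higher ones, Retnlb and Chil3 were above the filter level only in null mice. Their controls were at 17.1 to 22.6 for Retnlb and 31.1 to 83.9 for Chil3. These target lists were drawn up with the rises of Lrg1, Saa3 and Retnlb known, so their counts are no independent evidence.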

How the data were processed

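TRIzol was used to extract total RNA from the whole small intestine, per the labels, and the RNA of each mouse was read on its own 1-colour Affymetrix array. The deposited table holds a linear intensity for every probe set. Which software made it is not stated in the sources used here. All 6 arrays have the same 2%-trimmed mean, 500.3, so the deposited intensity values had been scaled. The number of mice limits the precision. The p-values set the difference between groups against the spread between mice, which limma adjusts by a trend over all probe sets tested.

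Symbols came from the platform annotation, where it gave a single one, and RefSeq's gene table (GRCm38.p6) changed 0 of the 53. The analysis used log2(value + 12), 12 being the 10th percentile of positive values, and so understates changes in dim signals. The filter level of 109.7 is the 40th percentile of the values. The comparison of null with control was made by limma 3.58.1 in R 4.3.3, with a variance trend in eBayes. P-values are two-sided and were adjusted by the Benjamini-Hochberg method over 7601 probe sets, with a threshold of 0.05. The steps were tested on simulated data, where 59.1% of 2-fold changes and 90% of 4-fold changes were recovered and 4.63% of calls were false. A 2-fold change was thus often missed, so a probe set that did not pass may still have changed. The interferon genes and all lists were chosen with earlier results of these data known. In a list, each gene was read by its brightest tested probe set. By their names, the probe sets of Slfn2, Socs3, Saa2, Jak3, Lap3, Ptpn6, Reg3b and Clca1 may also read related transcripts. So may those of H2-Q1, H2-K1, H2-DMb2, Mcpt1, Cd68, Fcgr1, Gzma and Wars.

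The naming rule took genes past the threshold, the 8 largest changes each way, the brightest of each role, Stat3, Stat6, Irf1, Irf7 and Irf9, and up to 4 called genes and the brightest of each list. Others, such as Socs1, Ptpn2, Ptpn6, Pias2, Jak3, Ifngr2, Ube2l6, Lap3, Ccnd2, Chil3, H2-Q1, H2-DMb2, Myd88, Cxcl9, Slfn4, Wars, Rsad2, B2m, Psmb8, Psmb9, Saa2, Cish, Il4ra, Ifit2 and Irf8, were picked with their values in view. Tried in turn were quantile normalization, equal medians, pseudocounts of 3 and 48, no filter, a filter at 288.7 (60th percentile), a sex term, the males alone, eBayes with no trend or with robust variance, each mouse left out, and the set without the 10 of its 53 probe sets that may read related transcripts.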

Additional observations from a re-analysis of the deposited data

How the results depend on the processing

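The rise of Ifitm3 kept its direction in all 16 alternatives and passed in 9 of them. It was not past the threshold in males alone (log2 change 0.73, adjusted p = 0.13) or without a variance trend (adjusted p = 0.0505), where 0 probe sets of the set passed in place of 1, nor without 5 of the 6 mice in turn, so that the count lay between 0 and 1 with a mouse left out. No other probe set of the set passed in any alternative. Of the 39, 22 kept the sign of their log2 change in every alternative that gave a value, and 17 did not. The median of the set was between 0.01 and 0.19 with a mouse left out, 0.01 being the value without null replicate 2, and -0.02 in males alone. Over all probe sets, 228 were called, 135 in males alone, 141 without a trend, and 52 to 182 with a mouse left out. Of the inhibitors, where 0 were called, 1 was at the stricter filter, 2 with sex as a covariate, 1 in males alone and 0 to 1 with a mouse left out. Of the other interferon-induced genes, 1 was called in place of 3 in males alone and without a trend, and 1 to 3 with a mouse left out. With sex as a covariate, 5 Stat3 targets and 2 Stat5 and Stat6 targets were called, and 1 to 5 and 1 to 1 with a mouse left out. For class I genes the range was 0 to 1, and for the other lists 0 to 0. The cause of these shifts was not tested. No paired analysis was possible because the labels name no pairing. They give no replicate numbers either, so those used here were assigned in the order of the samples.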

Other observations

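Probe sets shared by several genes were left out of the set by its rule, and 5 of them carry names of the same families. The one for Tgtp1 and Tgtp2, immunity-related GTPases, read 309.4, 730.7 and 273.8 in null replicates 1 to 3 and 221.2, 325.8 and 276.7 in control replicates 1 to 3, so null replicate 2 and control replicate 2 were again the highest of their groups. The one for Ifi204, Ifi205, Ifi211 and Mndal read 140.5, 222.6 and 151.9 in nulls and 133.0, 282.2 and 181.6 in controls, with the same mice highest. The one for Gbp4 and Gbp8 was dim, at 17.5 to 52.3 in nulls and 11.8 to 105.2 in controls, and so were those that include Ifi203, at 8.5 to 85.1 in nulls and 71.8 to 103.4 in controls, and Ifi202b, at 1.5 to 3.2 in nulls and 2.1 to 3.8 in controls.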
